A study of Mus musculus with 6 samples.

Results

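The genes described here encode 10 receptor tyrosine kinases that respond to growth factors or to matrix: the platelet-derived growth factor receptors Pdgfra and Pdgfrb, the fibroblast growth factor receptors Fgfr1 and Fgfr2, Egfr, Erbb2 and Erbb3 of the epidermal growth factor receptor family, the hepatocyte growth factor receptor Met, the Gas6 receptor Axl and the collagen receptor Ddr2. They were chosen by name, as all probe sets that the platform annotation assigned to these genes and to no other. All 10 were measured, by 20 probe sets, out of 12393 named genes and 22626 probe sets on the array. A probe set is a group of short probes read as 1 value, and 7 of the 10 genes had more than 1.

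The samples were cultured mouse cells of a line labelled PPP3R1, a name shared with the regulatory subunit of the phosphatase calcineurin, and no label used here says how the line was made or altered. RNA of 3 samples starved for 6 h and of 3 samples in normal medium, the control, was hybridised to 1 array each; no label says what the starvation medium lacked. Titles and series design place the same line in both groups, whereas the protocol fields name wild-type MEFs (mouse embryonic fibroblasts) as the control, so a difference between cell lines and the effect of starvation cannot be told apart wherever those fields are right. The titles speak of biological replicates without saying that cultures were separate, so that the p-values rest on array-to-array spread that may be technical.

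A receptor tyrosine kinase crosses the cell membrane once. When a ligand binds outside, receptors pair, phosphorylate each other on tyrosines inside and recruit adaptor proteins that switch on the RAS-MAP kinase and PI3 kinase-AKT pathways; the receptor is then taken into endosomes, marked with ubiquitin and degraded or recycled. In fibroblasts the platelet-derived and fibroblast growth factor receptors are known as main receptors for growth factors that drive division and migration. Platelet-derived growth factor receptors are also used as markers of mesenchymal cells. Erbb3 is known for a kinase domain of very low activity, so that it signals mainly when paired with a relative such as Erbb2.

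In starved cells 4 of the 10 receptor genes fell (Pdgfrb, Fgfr1, Pdgfra and Egfr), 3 rose (Axl, Ddr2 and Met) and 3 (Fgfr2, Erbb2 and Erbb3) did not pass the test. Each gene was read by its brightest probe set, and a call is an adjusted p of 0.05 or less in limma's test, adjusted by Benjamini-Hochberg over all 22626 probe sets. Of all 12393 genes 40.8% were called, 20.8% higher and 20.1% lower, so this comparison holds many calls among which 7 of 10 receptors are to be read. The calls of Egfr and Met were fragile: under other processing the probe set read for Egfr kept its call in 7 of 14 alternatives and that of Met in 9 of 14. The folds of the 7 called genes were small, from 1.18 for Egfr to 1.75 for Pdgfrb. Over the 10 genes the median change was -0.07 on the log2 scale, against -0.01 over all genes, because falls and rises offset each other. The median absolute change was 0.27 against 0.16. All genes here include those near background, whereas of the 10 only Erbb3 had means under 5 in both groups. These comparisons were not matched for level. The values are relative within quantile-normalized arrays of bulk RNA, in which fewer cells carrying a transcript and less of it per cell cannot be told apart.

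**Figure D1:**
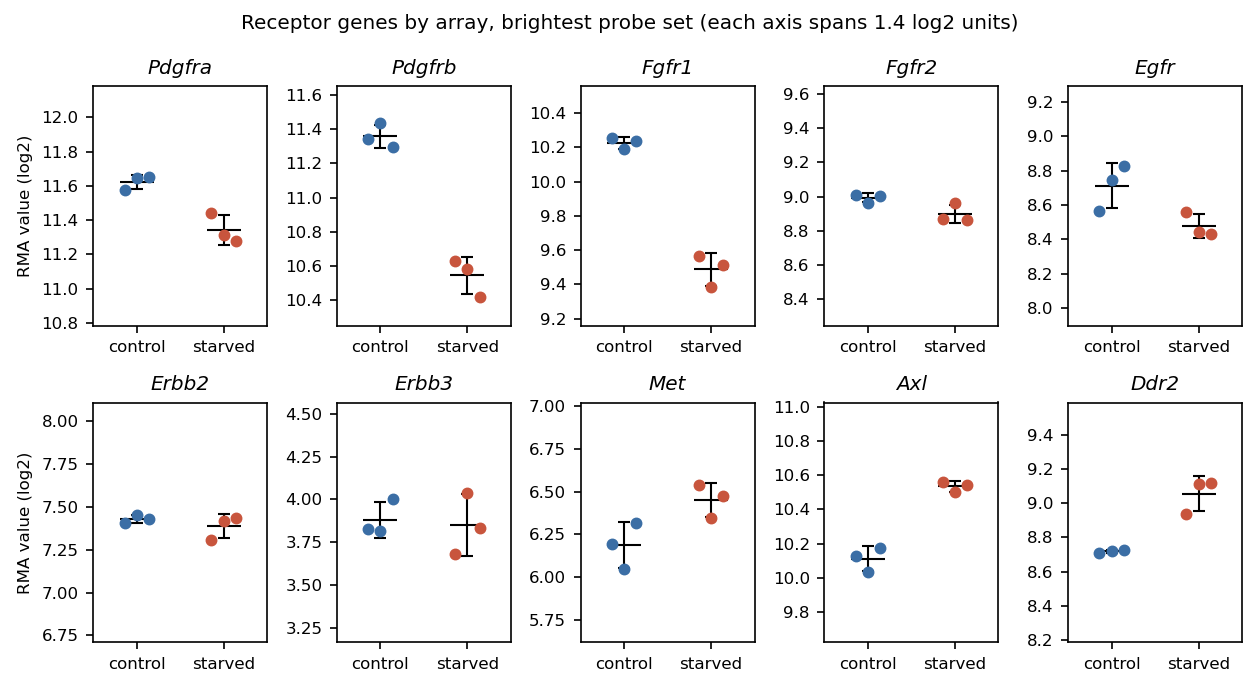
Level of each receptor gene on every array in its brightest probe set (RMA value, log2), with 3 control arrays in blue and 3 starved arrays in red; black bars are the mean and SD, and every vertical axis spans 1.4 log2 units around the gene's own level. Pdgfrb and Fgfr1 show the widest gaps between groups, Axl and Ddr2 lie higher in all 3 starved arrays, and the groups overlap for Erbb2 and Erbb3.

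The arrays and cells were checked first. Arrays of the same group correlated at 0.998 over all probe sets, pairs from both groups reached 0.986 to 0.988, and array medians lay between 6.74 and 6.78. Of 10 fibroblast markers 9 lay above 5, the level taken here as a limit for dim probe sets, with a median level of 13.21; Thy1 was the dim one. All 5 endothelial markers, 4 of 6 epithelial (Epcam, Cdh1, Krt18 and Cldn4), 4 of 6 leukocyte (Ptprc, Adgre1, Cd3e and Itgam) and 3 of 6 neural and glial markers (Gfap, Olig2 and S100b) were dim. The epithelial Krt8 and Krt19, the leukocyte Cd68 and Cd14, and the neural and glial Tubb3, Map2 and Sox10 were not dim. Krt8 (5.16 in control and 5.01 in starved cells) and Krt19 (5.24 and 5.49) lay close to the limit. The mean level of the neural and glial list was 4.91 to 4.98 in control and 5.15 to 5.19 in starved arrays, that of the epithelial list 4.26 to 4.40 and 4.39 to 4.51, that of the leukocyte list 4.79 to 5.01 and 4.85 to 4.88, and that of the endothelial list 3.77 to 4.0 and 3.82 to 3.94. The fibroblast list averaged 11.90 to 11.92 in control and 11.86 to 11.87 in starved arrays, without overlap, and 4 of its 10 genes rose and 2 fell. By gene, 2 neural and glial, 1 epithelial and 1 endothelial marker rose. Of the leukocyte markers Cd68 rose from 6.25 to 6.68 (limma adjusted p = 0.00076) and Cd14 fell from 8.34 to 8.02 (limma adjusted p = 0.00303). The part of other cells in the results was not tested.

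Promoter sequences are shown for receptors called in either direction, to set those that fell beside those that rose. RefSeq promoter windows on GRCm38.p6 were matched by symbol for 7 of the 10 genes, and Pdgfrb, Fgfr1 and Erbb3 were not matched. The 250 bases before the annotated start are printed for the 5 called genes with a window, the falling Pdgfra and Egfr first and the rising Met, Axl and Ddr2 after them. Capitals mark matches on either strand to the GC box GGGCGG that Sp1 factors bind, to the forkhead motif GTAAACA that FoxO factors bind, to the AP-1 motif TGAGTCA and to the E-box CACGTG.
Pdgfra, chr5:75152001-75152250, plus strand: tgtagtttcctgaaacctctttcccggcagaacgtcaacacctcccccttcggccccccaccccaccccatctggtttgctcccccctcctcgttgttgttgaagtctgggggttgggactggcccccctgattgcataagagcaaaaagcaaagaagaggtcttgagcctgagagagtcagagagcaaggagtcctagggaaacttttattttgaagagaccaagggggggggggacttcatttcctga
Egfr, chr11:16751953-16752202, plus strand: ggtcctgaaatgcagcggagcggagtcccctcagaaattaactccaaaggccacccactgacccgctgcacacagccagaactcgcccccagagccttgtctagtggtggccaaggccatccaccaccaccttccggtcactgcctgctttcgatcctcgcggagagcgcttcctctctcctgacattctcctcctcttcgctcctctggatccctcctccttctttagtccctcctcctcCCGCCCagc
Met, chr6:17463707-17463956, plus strand: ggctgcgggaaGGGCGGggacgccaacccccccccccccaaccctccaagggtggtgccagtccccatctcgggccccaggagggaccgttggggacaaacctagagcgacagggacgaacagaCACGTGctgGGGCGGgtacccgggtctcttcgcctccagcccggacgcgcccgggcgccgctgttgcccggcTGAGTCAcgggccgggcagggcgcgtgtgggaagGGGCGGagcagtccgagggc
Axl, chr7:25788734-25788983, minus strand: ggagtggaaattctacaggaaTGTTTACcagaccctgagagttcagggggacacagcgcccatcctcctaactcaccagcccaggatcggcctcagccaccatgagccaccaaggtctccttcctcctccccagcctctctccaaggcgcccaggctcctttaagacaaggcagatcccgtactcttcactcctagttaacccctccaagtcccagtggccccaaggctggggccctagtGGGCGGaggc
Ddr2, chr1:170088945-170089194, minus strand: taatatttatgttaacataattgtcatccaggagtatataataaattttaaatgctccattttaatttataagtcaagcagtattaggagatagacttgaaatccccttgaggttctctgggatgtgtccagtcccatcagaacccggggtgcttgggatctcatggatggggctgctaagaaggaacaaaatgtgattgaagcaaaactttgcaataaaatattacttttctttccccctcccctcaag
Over 32851 windows of the same length, 32.7% held the GC box, 3.17% the forkhead motif, 4.46% the AP-1 motif and 6.02% the E-box, counted on both strands. No match of 1 motif overlapped another in these 5 windows. Met had 3 GC boxes, at 239, 117 and 20 bases before the start, with an E-box at 126 and an AP-1 motif at 54. Axl had a forkhead motif at 229 bases on the opposite strand and a GC box at 10, and Egfr had a GC box at 9 on the opposite strand. The windows of Pdgfra and Ddr2 held none of these letters, and neither did those of Fgfr2 and Erbb2. Their base composition differed as well, with G or C at 74.0% of positions in Met, 66.0% in Erbb2, 60.8% in Egfr, 60.0% in Axl, 54.4% in Pdgfra, 44.0% in Fgfr2 and 37.6% in Ddr2. No motif was held by all 3 risers, and none by both Pdgfra and Egfr. Whether transcription began at the annotated starts in these cells, that of the GC-poor Ddr2 window among them, was not tested.

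Among the platelet-derived growth factor receptors, both genes fell. Pdgfrb, the receptor for PDGF-BB and PDGF-DD, read 11.34, 11.43 and 11.30 (log2) in control cells, given in the order of replicates 1 to 3 here and throughout, and 10.63, 10.58 and 10.42 in starved cells. Every starved array lay below every control array, and the gap was several times the spread within a group. The mean went from 11.36 ± 0.07 (SD, n = 3) to 10.55 ± 0.11 (SD, n = 3), a change of -0.81 ± 0.07 (SE) or 1.75-fold lower (limma adjusted p = 8.81e-05). Its dimmer probe set read 9.58, 9.60 and 9.77 in control and 8.81, 8.76 and 8.76 in starved cells, a change of -0.87 ± 0.07 (limma adjusted p = 4.13e-05). Both probe sets of Pdgfrb therefore gave nearly the same fold.

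Pdgfra, which binds PDGF-AA and PDGF-CC and marks many fibroblasts, fell less in its brighter probe set. That probe set read 11.57, 11.64 and 11.65 in control and 11.44, 11.31 and 11.28 in starved cells, again without overlap. The change was -0.28 ± 0.06 (SE), from 11.62 ± 0.04 to 11.34 ± 0.09 (SD, n = 3 each; limma adjusted p = 0.00905). The dimmer probe set read 8.66, 8.83 and 8.86 against 8.24, 8.25 and 8.13, a change of -0.58 ± 0.07 (limma adjusted p = 0.000471). The direction of Pdgfra was the same in both probe sets, but its size was not settled, and the mean of the 2 probe sets fell by 0.43. Taken array by array in the brighter probe sets, the change of Pdgfrb minus that of Pdgfra was -0.53 ± 0.06 (SE), with no overlap between the groups.

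That comparison belongs to 5 made within receptor subfamilies, each chosen after the values were seen. For each pair the array values of 1 receptor were subtracted from those of the other. The groups were then compared by a two-sided exact permutation test, which with 3 arrays against 3 cannot go below 0.1. The SE of such a difference comes from the 3 differences in each group alone. It is not of the same kind as limma's SE of a single change, which also draws on the other probe sets. Pdgfrb against Pdgfra reached that limit (exact p = 0.1, 0.167 adjusted over the 5 pairs), as did Fgfr1 against Fgfr2 and Axl against Mertk with the same p-values. No pair passed a threshold of 0.05, and none could have.

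Of the fibroblast growth factor receptors, Fgfr1 fell and Fgfr2 did not pass. Fgfr1, the main receptor of this family in mesenchymal cells, read 10.26, 10.19 and 10.23 in control and 9.57, 9.38 and 9.52 in starved cells. The 3 starved arrays lay well under the 3 control arrays, and the mean fell from 10.23 ± 0.03 to 9.49 ± 0.10 (SD, n = 3 each), a change of -0.74 ± 0.07 (SE) or 1.67-fold lower (limma adjusted p = 8.07e-05). This probe set can match several transcripts by its name suffix. The other, dimmer Fgfr1 probe set read 9.03, 8.94 and 9.21 against 8.52, 8.47 and 8.61 and fell by 0.53 (SE 0.08, limma adjusted p = 0.00134), so both agreed in direction.

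Fgfr2, whose splice forms are best known from epithelia and the mesenchyme facing them, read 9.01, 8.96 and 9.0 in control and 8.87, 8.96 and 8.87 in starved cells. These values lay close together, and the highest starved array was just under the lowest control array. The change of -0.09 ± 0.06 (SE) did not pass (limma adjusted p = 0.232), with a 95% interval of -0.22 to 0.04. This probe set, too, can match several transcripts by its suffix. Its dimmer probe set differed by -0.04 ± 0.06 (limma adjusted p = 0.634), with overlapping groups. Array by array, the change of Fgfr1 minus that of Fgfr2 was -0.64 ± 0.09 (SE), without overlap.

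**Figure D2:**
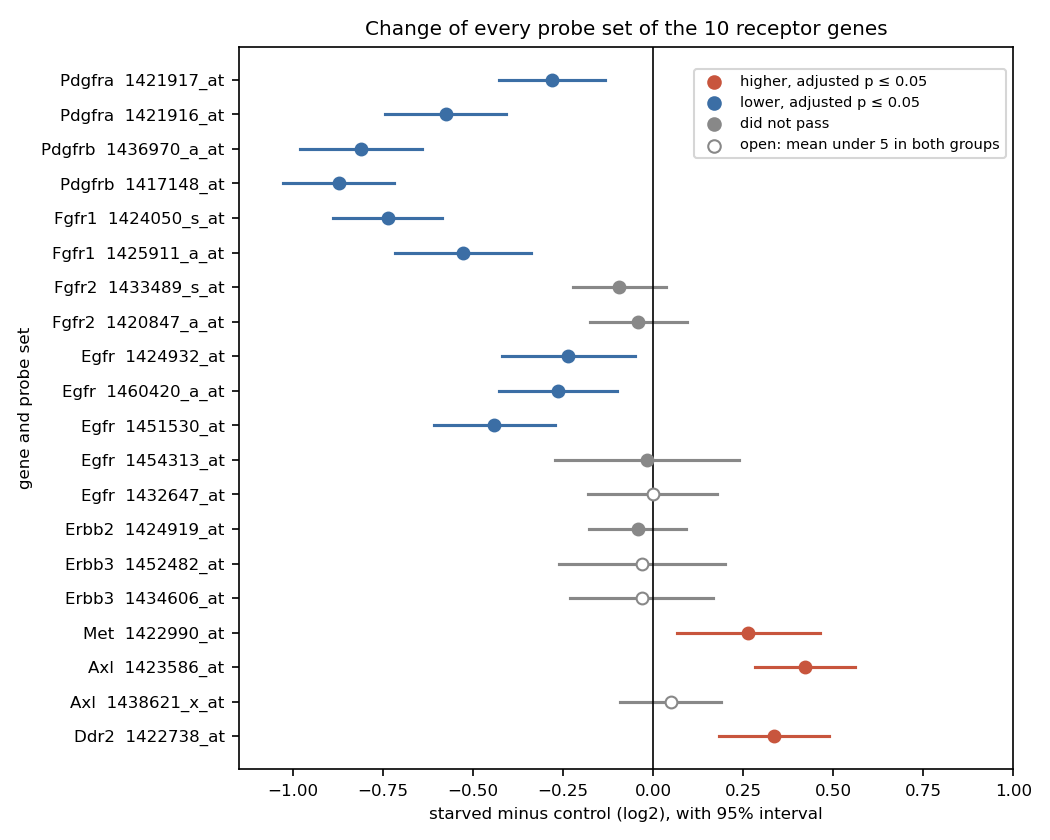
Change of each of the 20 probe sets of the 10 receptor genes, as starved minus control in log2 units, with limma's 95% interval as a horizontal line; red and blue mark calls higher and lower, grey those that did not pass, and open circles a mean under 5 in both groups. The probe sets of Pdgfra, Pdgfrb and Fgfr1 all lie left of 0, those of Fgfr2, Erbb2 and Erbb3 have intervals that include 0, and the single bright probe sets of Met, Axl and Ddr2 lie right of 0.

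In the epidermal growth factor receptor family Egfr fell and the other two members measured here did not pass. Egfr, the receptor for EGF, TGF-alpha and related ligands, had 5 probe sets, of which 3 fell and 2 did not pass. The brightest read 8.57, 8.74 and 8.83 in control and 8.56, 8.44 and 8.43 in starved cells. Starved replicate 1 lay just below control replicate 1, so the groups touched without overlapping, and the change of -0.24 ± 0.08 (SE) passed narrowly (limma adjusted p = 0.0477). Among the settings that ended this call were the fits without control replicate 2 (adjusted p = 0.123), control replicate 3 (0.130), starved replicate 1 (0.0515), starved replicate 2 (0.124) or starved replicate 3 (0.130) and the fit without moderation of the spread (0.121); its alternatives ranged from 0.00718 to 0.130 in limma.

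The next Egfr probe set read 8.05, 7.89 and 8.09 against 7.73, 7.70 and 7.81 and fell by 0.26 (SE 0.07, limma adjusted p = 0.0184). It lost its call without control replicate 1 (adjusted p = 0.0613), control replicate 3 (0.0561), starved replicate 1 (0.0557) or starved replicate 2 (0.0620) and without moderation (0.0553), and its alternatives spanned 0.00364 to 0.0620 in limma. The third Egfr probe set read 6.96, 6.82 and 7.07 against 6.48, 6.51 and 6.54, a change of -0.44 ± 0.07 (limma adjusted p = 0.00189). This fall passed in every alternative run for it, with adjusted p-values up to 0.0176. The dimmest Egfr probe sets, at 5.27 and 4.89 in control cells, differed by -0.02 ± 0.11 and -0.00 ± 0.08 and did not pass. Direction was shared by the 3 brighter probe sets, while the size of the Egfr fall depended on which was read.

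Erbb2, the partner receptor of this family that has no ligand of its own, read 7.41, 7.46 and 7.43 in control and 7.31, 7.42 and 7.44 in starved cells. The groups overlapped, and the change was -0.04 ± 0.06 (SE; limma adjusted p = 0.609) with a 95% interval of -0.18 to 0.09. The change of Egfr minus that of Erbb2 was -0.19 ± 0.11 (SE) array by array, and the groups overlapped in this difference (exact permutation p = 0.2, 0.25 adjusted over the 5 pairs). Erbb3, the neuregulin receptor with the weak kinase, lay near background: its probe sets had control means of 3.88 ± 0.10 and 3.47 ± 0.16 and starved means of 3.85 ± 0.18 and 3.43 ± 0.07 (SD, n = 3 each). No level of Erbb3 above the dim limit was seen on any array, and a change of it was not detectable here.

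The receptors Axl, Ddr2 and Met rose. Axl, the receptor of the TAM family that binds the bridging ligand Gas6, read 10.13, 10.03 and 10.18 in control and 10.56, 10.50 and 10.54 in starved cells. The starved arrays clustered tightly above all control arrays, with a change of 0.42 ± 0.06 (SE) or 1.34-fold higher, from 10.11 ± 0.07 to 10.54 ± 0.03 (SD, n = 3 each; limma adjusted p = 0.000867). Its other probe set can match several transcripts and lay near background, at 2.90 ± 0.05 and 2.95 ± 0.07 (SD, n = 3 each), without passing. The mean of both probe sets rose by 0.24 (limma adjusted p = 0.00608), a size that takes in the near-background probe set.

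Mertk, another TAM receptor, went the other way, from 6.39 ± 0.06 to 6.06 ± 0.21 (SD, n = 3 each; change -0.34 ± 0.10, limma adjusted p = 0.0316). Tyro3, the remaining TAM receptor, differed by -0.04 ± 0.08 in its brighter probe set without passing (limma adjusted p = 0.755). The changes of Axl and Mertk differed by 0.76 ± 0.15 (SE) log2 units array by array, with no overlap between the groups.

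Ddr2, a receptor for fibrillar collagen found in fibroblasts and cartilage, had 1 probe set. It read 8.71, 8.72 and 8.73 in control and 8.94, 9.11 and 9.12 in starved cells. The control arrays were nearly identical, starved replicate 1 was the lowest starved array, and the groups did not overlap. The change was 0.34 ± 0.07 (SE), 1.26-fold higher (limma adjusted p = 0.00439). Ddr1, the other collagen receptor of this kind, rose by 0.27 ± 0.07 in its brightest probe set (limma adjusted p = 0.0126) and in 4 of its 8 probe sets in all, and the changes of both differed by 0.07 ± 0.11 with overlapping groups (exact permutation p = 0.6, also 0.6 adjusted over the 5 pairs).

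Met, the receptor for hepatocyte growth factor, is best known from epithelia that respond to the factor secreted by fibroblasts. Its single probe set read 6.20, 6.05 and 6.32 in control and 6.54, 6.34 and 6.47 in starved cells. Control replicate 3 came within a few hundredths of starved replicate 2, so the groups nearly met. The change of 0.26 ± 0.09 (SE), 1.20-fold higher, passed narrowly (limma adjusted p = 0.0406). It lost its call without control replicate 1 (adjusted p = 0.0889), control replicate 2 (0.121), starved replicate 1 (0.125) or starved replicate 3 (0.101) and without moderation (0.12), and its alternatives spanned 0.0213 to 0.125 in limma.

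Counted over probe sets, 9 of the 20 fell, 3 rose and 8 did not pass, beside 39.5% of all probe sets called, 19.2% lower and 20.3% higher. For 13 of the 20 (65.0%) the 3 starved and 3 control arrays did not overlap, against 50.4% of all probe sets. Neither share of all probe sets was matched for level. In no receptor gene were 2 probe sets called in opposite directions. Of the 8 that did not pass, 4 were dim in both groups: both of Erbb3, 1 of Egfr and 1 of Axl.

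**Figure D3:**
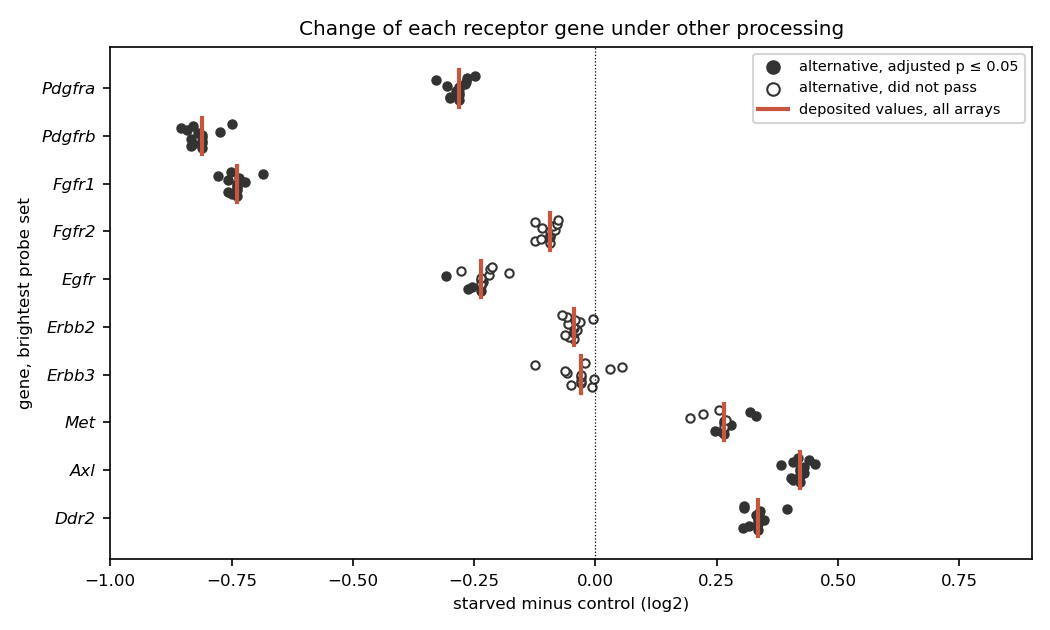
Change of each receptor gene in its brightest probe set (starved minus control, log2) under other ways of processing, 1 dot for each, filled where the adjusted p was 0.05 or less; the red bar is the value from the deposited data with all arrays. Dots for Pdgfra, Pdgfrb, Fgfr1, Axl and Ddr2 are all filled, Egfr and Met have both kinds, and those of Fgfr2, Erbb2 and Erbb3 are all open.

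Named genes with the profiles most like those of the receptors were sought for all 7 called receptors, and those of the 3 with the largest change are given. Likeness was measured as the root mean square difference between log2 profiles over all 6 arrays, each centred on its own mean, among named genes outside the 10. Nearest to Pdgfrb were Ung at 0.03, Atp11a at 0.04 and Tsr1 at 0.05. Nearest to Fgfr1 were Manf at 0.02, Naalad2 at 0.03 and Slc25a15 at 0.03. Nearest to Axl were Atf5, Eprs and Siva1, each at 0.02. With 2 groups of 3 arrays, such profiles reflect mainly a change of like size between the groups.

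The share of all genes called, 40.8%, is the background for each list of related genes that follows. That share was not matched for level, and the lists hold genes that were dim in both groups. Among the ligands these included Egf, Fgf1 and Fgf9, and among the other receptor tyrosine kinases Kit, Kdr and Alk. A dim gene that did not pass is not thereby shown to be unchanged. Of 36 genes for ligands of these receptors or of others in their subfamilies, 33 were measured. Of these 2 rose, 4 fell and 27 did not pass, with a median change of -0.02 against -0.01 over all genes. The risers were Pdgfa and Btc. Pdgfa, which encodes the chain of PDGF-AA, rose from 8.13 ± 0.04 to 8.73 ± 0.08 (SD, n = 3 each, limma adjusted p = 0.000173) in its brighter probe set. Btc, which encodes the Egfr ligand betacellulin, rose by 0.63 ± 0.08 from 5.10 in control cells, just above the dim limit. The other Btc probe set was dim in both groups, at 3.07 and 3.60. The dimmer Pdgfa probe set differed by 0.22 ± 0.09 without passing (limma adjusted p = 0.0910). The fallers included both ligands of the TAM family, Pros1 (-0.83 ± 0.07, limma adjusted p = 5.29e-05) and Gas6 (-0.44 ± 0.06, limma adjusted p = 0.000651). Pros1 is counted here for that family and not as a ligand of Axl. Gas6 read 10.29, 10.32 and 10.41 in control and 9.93, 9.93 and 9.85 in starved cells, below every control array. The ligand Gas6 was lower in the cells in which its receptor Axl was higher, and Pdgfa was higher where Pdgfra was lower. Whether the opposite directions within these pairs are linked was not tested.

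Among other ligands, Fgf7, a fibroblast product that acts on epithelial Fgfr2, fell by 0.27 (SE 0.06, limma adjusted p = 0.0102). The fourth faller, Fgf2, was dim in both groups at 3.75 and 3.43. Pdgfc, the chain of PDGF-CC, was at 9.18 in both group means and did not pass (limma adjusted p = 0.982). Hgf, the ligand of Met, was at 5.83 ± 0.11 and 5.71 ± 0.11 (SD, n = 3 each) without passing (limma adjusted p = 0.312).

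Of 48 other receptor tyrosine kinases 41 were measured; 3 rose, 7 fell and 31 did not pass (median -0.01). The ephrin receptor gene Epha4 rose by 0.97 ± 0.14 (limma adjusted p = 0.00110), with Ddr1 and the ephrin receptor gene Ephb4 (0.25 ± 0.06) as the other risers. The Wnt5a receptor gene Ror2 fell by 0.94 (SE 0.10, limma adjusted p = 0.000231), from 6.31 ± 0.20 to 5.38 ± 0.08 (SD, n = 3 each). Ptk7, a kinase-dead receptor of Wnt signalling, fell by 0.51 (SE 0.07), Epha2 by 0.35 (SE 0.09), Ephb3 by 0.28 (SE 0.05) and the Wnt receptor gene Ryk by 0.18 (SE 0.05). Mertk and the neurotrophin receptor gene Ntrk2 (-0.31 ± 0.08) were the other fallers. The insulin-like growth factor receptor gene Igf1r differed by 0.12 ± 0.08 without passing (limma adjusted p = 0.282).

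**Figure D4:**
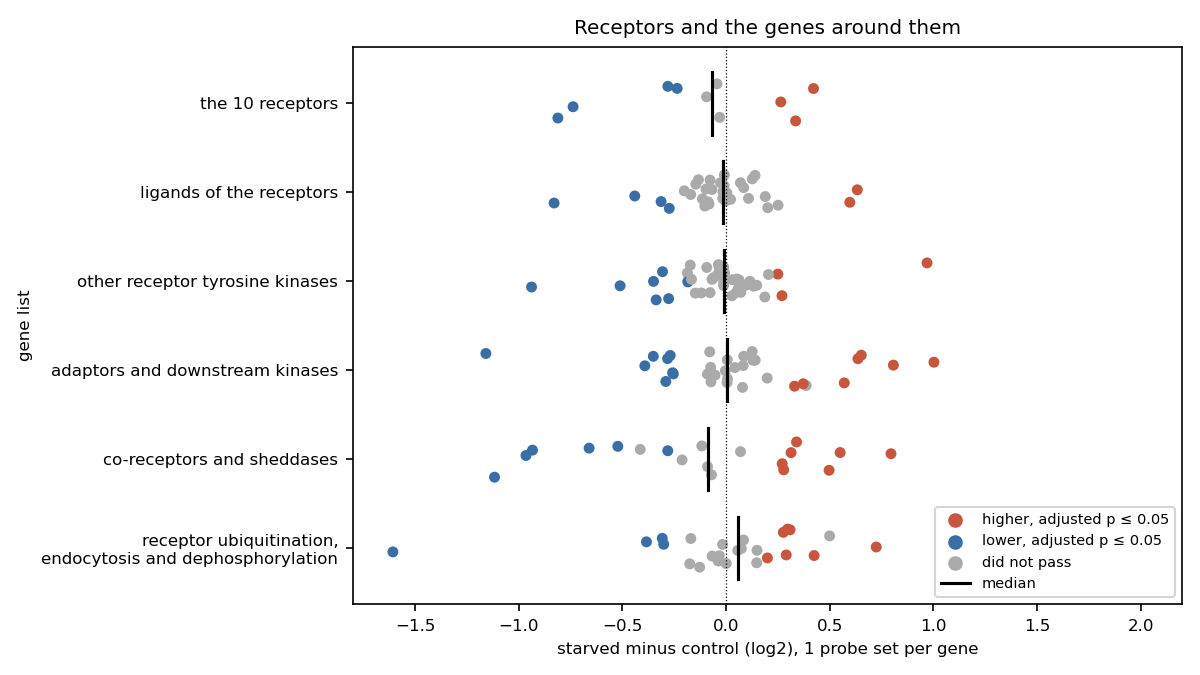
Change of each measured gene (starved minus control, log2, 1 probe set per gene) for the 10 receptors and for 5 lists of genes around them; 1 dot is 1 gene, red and blue mark calls higher and lower, grey did not pass, and the black bar is the list's median. Medians lie between -0.09 and 0.06 in all 6 rows, while single genes reach -1.61 (Errfi1) and 1.00 (Gab1).

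Downstream of the receptors, 33 of 43 genes for adaptors and kinases were measured; 7 rose, 8 fell and 18 did not pass (median 0.01). Gab1, a docking protein that couples Met and Egfr to PI3 kinase and the phosphatase Shp2, rose from 8.16 ± 0.07 to 9.17 ± 0.02 (SD, n = 3 each), a change of 1.00 ± 0.06 (SE; limma adjusted p = 1.21e-05). Its 3 probe sets all rose. Pik3r1, which encodes the regulatory PI3 kinase subunit p85 alpha, fell by 1.16 (SE 0.08, limma adjusted p = 3.04e-05), and the RAS relative Rras (0.81 ± 0.06) and the RAF kinase gene Araf (0.65 ± 0.06) rose. The adaptor gene Grb2 has no settled direction: its brighter probe set fell by 0.27 (SE 0.06) and the other rose by 0.28 (SE 0.06), and both passed. The adaptor gene Crk fell by 0.35 (SE 0.06) in its brightest probe set and by 0.21 (SE 0.06) in the next. Its dimmer probe sets did not pass, among them 1 at 7.45 in control cells that differed by 0.06 ± 0.09 (limma adjusted p = 0.653). Irs1, the docking protein of insulin receptors, differed by 0.01 ± 0.07 without passing.

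Co-receptors and sheddases (membrane proteases that release ligands or receptor ectodomains) had 19 of 24 genes measured; 7 rose, 6 fell and 6 did not pass (median -0.09). Among the 6 fallers were the metalloprotease genes Adam19 (-1.12 ± 0.08), Adam10 (-0.97 ± 0.08), Adam17 (-0.66 ± 0.05) and Adam9 (-0.28 ± 0.06). Adam10 and Adam17 encode the proteases best known for releasing ligands of Egfr, and Adam10 read 10.54, 10.76 and 10.56 in control and 9.74, 9.54 and 9.69 in starved cells. The neuropilin gene Nrp1, a co-receptor that also binds PDGF and VEGF, fell by 0.93 (SE 0.05, limma adjusted p = 9.91e-06). The heparan sulfate proteoglycan gene Gpc6, of the glypicans that can hold fibroblast growth factors, rose by 0.80 ± 0.07 (limma adjusted p = 7.98e-05). Lrp1, which encodes an endocytic receptor that binds Pdgfrb, differed by -0.41 ± 0.14 without passing (limma adjusted p = 0.0521).

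Of 28 genes for receptor ubiquitination, endocytosis and dephosphorylation 25 were measured; 7 rose, 4 fell and 14 did not pass (median 0.06). Errfi1, the inhibitor MIG6 that binds the Egfr kinase domain, fell from 9.85 ± 0.07 to 8.24 ± 0.06 (SD, n = 3 each), a change of -1.61 ± 0.06 or 3.05-fold lower (limma adjusted p = 2.54e-06). The endosomal sorting genes Hgs (0.72 ± 0.05, limma adjusted p = 3.07e-05) and Stam (0.43 ± 0.07, limma adjusted p = 0.00210), whose products pass ubiquitinated receptors towards lysosomes, rose, as did the Cbl partner gene Sh3kbp1 (0.30 ± 0.06). The receptor phosphatase gene Ptprj fell by 0.38 (SE 0.09), and the clathrin heavy chain gene Cltc differed by 0.15 ± 0.07 without passing (limma adjusted p = 0.132).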

How the data were processed

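Biotin-labelled RNA of 3 starved and 3 control samples was measured on Affymetrix arrays. The deposited values are log2 levels; the submitters' processing notes name affy and RMA, whose versions were not given in the sources used here. By design RMA subtracts background, gives all arrays 1 distribution and combines probes, so a shift shared by most transcripts would be hidden. Of 22690 rows 64 array controls were set aside; there were 0 missing values. The platform annotation gave 20380 probe sets 1 gene, 691 several genes and 1555 no gene; 29 identifiers were not found in the RefSeq table, and 0 symbols changed.

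Groups follow the titles. limma 3.58.1 in R 4.3.3 (lmFit, eBayes, two-sided, no covariate) was run on all 22626 probe sets and tested on simulated data. Each gene was read by its probe set of highest mean. The members and lists were chosen with earlier results of these data known. From each list the text names up to 4 called genes of largest change and up to 2 others of highest level; Mertk, Tyro3, Ddr1, Ephb4, Ntrk2, Igf1r, Hgf, Fgf2, Grb2 and Adam17, the subfamily pairs and the promoter motifs were picked after values or sequences were seen. Precision is limited by the number of arrays. Scan dates were not used here, and starvation cannot be told apart from any batch in step with it. Python 3.11.15 with matplotlib 3.10.9 drew the figures.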

Additional observations from a re-analysis of the deposited data

How the results depend on the processing

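The alternatives changed the arrays' scaling (quantile again, or medians set equal), the set tested (no dim probe sets, none open to several transcripts, or 1 per gene), the spread (robust with a trend, unmoderated, or weighted by array), the reading of a gene (its probe sets averaged) and the samples (the replicate number as a block, or 1 array left out). The called probe sets of Pdgfra, Pdgfrb, Fgfr1, Axl and Ddr2 and the dimmest called one of Egfr kept their direction and call in all of those run for each; Met and the other called Egfr probe sets lost theirs as given above. Receptors called ranged from 2 to 3 higher and 3 to 4 lower over all alternatives. Without moderation 4 of the other receptor tyrosine kinases were called lower, against 7. With 1 array left out 5 to 6 of them were, with the replicate block 6, and with probe sets averaged 8. The mean of probe sets moved Axl from 0.42 to 0.24 and Pdgfra from -0.28 to -0.43. Deviations of same-numbered arrays from their group means correlated at r of -0.0944, 0.0148 and -0.00833 for numbers 1, 2 and 3. Control replicate 3 reached 0.0887 with starved replicate 1 and -0.0813 with starved replicate 2. With 3 arrays per group these values cannot show whether same-numbered samples were paired. The labels state no block, so the main fit has none. With the replicate block, 3 receptors were called higher and 3 lower, and the brightest Egfr probe set did not pass (limma adjusted p = 0.0943).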
